A study of Xenopus laevis with 5 samples.

Results

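Olfm4, fstl1 and pnhd encode secreted proteins, and in frog ectoderm all 3 had far lower signals when FoxJ1 was added to ICD than with ICD alone. The array carried 4 probe sets annotated with one of these names among 15491 probe sets other than controls: 1 for olfm4.L, 1 for fstl1.L and 2 for pnhd.L. The 3 genes, of 7531 named on the array, were chosen by their low signal with FoxJ1 in these same samples. Their differences are therefore described here without a test.

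The samples were 5 preparations of RNA from ectodermal explants of Xenopus laevis, each hybridised to 1 Affymetrix array. Embryos at the 2-cell stage received synthetic RNA for ICD in 3 samples, and for ICD together with FoxJ1 in 2 samples. Animal caps were cut at stage 9 to 10 from embryos raised in 0.1X MMR, cultured on fibronectin in Danilchik's medium with 0.1% BSA, and harvested at stage 22. ICD, which both groups received, is the field's short name for the intracellular domain of Notch, which the labels do not spell out. There was no group without ICD, so each value below is a level with ICD present, and no label states that the replicates were separate clutches of embryos. The p-values given for other genes thus reflect the spread of these 5 samples alone, some or all of which could be technical.

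Embryonic frog skin is a secretory and ciliated epithelium. Active Notch keeps its progenitors from becoming multiciliated cells, and FoxJ1 is a forkhead transcription factor that turns on genes of motile cilia. Secreted proteins of the ectoderm carry signals to neighbouring tissue. Olfm4 is listed by RefSeq under the synonym tiarin. In Xenopus, Tiarin was described as a protein of the non-neural ectoderm beside the anterior neural plate that promotes dorsal neural fates, and in the mouse intestine Olfm4 marks crypt stem cells and responds to Notch. Fstl1, follistatin-like 1, is a glycoprotein with a follistatin domain that restrains BMP signalling in mouse lung. Pnhd, or Pinhead, is a cysteine-rich protein of the frog gastrula that cooperates with Wnt and FGF signals and opposes the BMP-like ligand Admp.

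The signals are MAS5 intensities on a linear scale, scaled per array by the authors. The background level of an array is the highest signal among its 17 probe sets for synthetic tag sequences, and it lay between 16.9 and 28.4. The arrays also fell into 2 sets by their control RNAs, a split that no label names. Those with poly-A tails gave a median signal of 318 to 368 on one set, made up of the first 2 ICD replicates and the first with FoxJ1, and of 1.90 to 2.95 on the other, ICD replicate 3 and ICD+FoxJ1 replicate 2. Each set held both groups, and differences within each are given beside the pooled ones.

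Olfm4.L gave signals of 2285.2, 1684.6 and 1493.4 in the order of the ICD replicates, then 171.4 and 99.0 in ICD+FoxJ1 replicates 1 and 2, an order kept for all genes below. The groups were far apart, and the lowest ICD array was 8.71 times the highest array with FoxJ1. The gene stayed detectable in both groups, since even the array with the lowest signal was 3.91 times its background level. The mean signal was 1821 ± 413 (SD, n = 3) without FoxJ1 and 135 ± 51.2 (SD, n = 2) with it. On the log2(signal + 16) scale the difference, FoxJ1 minus ICD alone, was -3.62, or 12.3-fold lower, against a spread within groups of 0.39 (SD). It was -3.40 within the set with poly-A signal (2 ICD arrays and 1 array with FoxJ1) and -3.71 within the other (1 array of each group). In bulk explants, fewer cells that express a gene and less RNA per cell cannot be told apart.

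Fstl1.L gave 97.2, 398.2 and 355 with ICD, against 5.7 and 31.5 when FoxJ1 was added. ICD replicate 1 stood well below the other ICD arrays, which were close to each other. With FoxJ1 the signal was below background on replicate 1 and 1.25 times background on replicate 2, so 1 of these 2 arrays measured the gene. The lowest ICD array was at 3.09 times the highest array with FoxJ1. Both arrays with FoxJ1 lay below all ICD arrays in 23.1% of tested probe sets, so the lack of overlap is only described. The log2 difference of the signals as deposited was -3.01, with a spread within groups of 0.96 (SD), and it was -2.71 with the dim array set to its background level. Since that array bounds the level only from above, no exact fold is given. Within the sets the difference was -3.32 with poly-A signal, which rests on the dim array, and -2.97 without.

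A probe set named xfrp, not annotated with any of the 3 names, also had lower signals with FoxJ1. RefSeq lists xFRP as a synonym of fstl1.L and also carries xfrp as a gene of its own. Of 16 named genes within 12 places of xfrp, 9 have the same base name as one of 13 named genes around fstl1.L, among them lrrc58, cox17 and nr1i2. Its signals were 128.4, 378.2 and 327.3 with ICD, against 42.6 and 38.1 with FoxJ1. These lay above background on every array, so xfrp was measured where fstl1.L was not. Its log2 difference was -2.26, or 4.78-fold lower. ICD replicate 1 was again the lowest ICD array, as it was in 42.3% of tested probe sets. Probe sets for copies of a gene can bind each other's RNA, and whether these 2 do was not tested.

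Pnhd.L had 2 probe sets, and only the brighter one measured the gene. That one gave 210.6, 151.6 and 369.6 with ICD, against 12.7 and 13.8 with FoxJ1. All ICD arrays lay between 7.42 and 14.3 times their background level, whereas both arrays with FoxJ1 were below theirs. The groups did not overlap, with FoxJ1 lower, as in 23.1% of tested probe sets. Because the group with FoxJ1 was at background, the change is a bound: pnhd.L was at least 6.64-fold lower on the log2(signal + 16) scale, with the dim arrays set to their background level. The measured difference was -3.06, against a spread within groups of 0.50 (SD), and it was -2.76 and -3.69 within the sets with and without poly-A signal.

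The other pnhd.L probe set gave 4.4, 9.8 and 9.4 with ICD, against 3.5 and 8.5 with FoxJ1. All of these values were below background, so it says nothing of a direction. Pnhd.L lies next to admp.L in the RefSeq gene order. Admp, a BMP-like ligand, was represented by 2 probe sets for its other homeolog, admp.S, a homeolog being the copy of a gene in the other subgenome of this frog. The dimmer of them was below background on all 5 arrays. The brighter gave 17.2, 24.1 and 19.1 with ICD, against 22.0 and 5.3 with FoxJ1, at background on 3 arrays. RefSeq also has a pnhd.S, but no probe set bore its name.

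**Figure D1:**
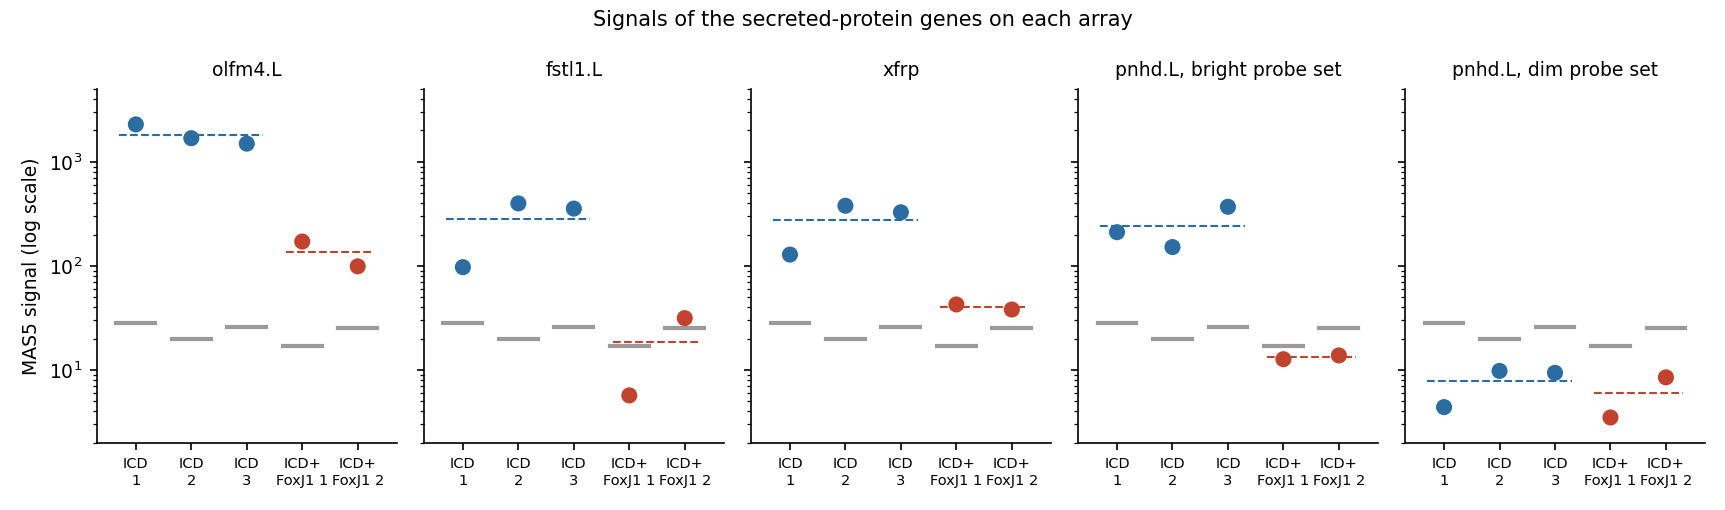
Points are MAS5 signals (log axis) on each of the 3 ICD arrays (blue) and 2 ICD+FoxJ1 arrays (red), dashed lines are group means and grey bars are the background level of each array. Olfm4.L stays above background with FoxJ1 (171.4 and 99.0), the brighter pnhd.L probe set does not (12.7 and 13.8), and the dim one is at background throughout.

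Of the 11618 probe sets left after the dimmest 25% were taken out, limma called 876, or 7.54%, at an adjusted p below 0.05, with 349 lower (3.00%) and 527 higher (4.54%) with FoxJ1. When 1 array was left out, the number called was 1404, 580 and 572 for ICD replicates 1, 2 and 3, and 169 and 193 for ICD+FoxJ1 replicates 1 and 2. Ordered by log2 difference, olfm4.L had the 2nd, pnhd.L the 5th and fstl1.L the 6th lowest value. In all 3 genes both arrays with FoxJ1 lay below all ICD arrays, as they did in 23.1% of tested probe sets. Since these genes were chosen for this very difference, nothing is read from these ranks. The dim pnhd.L probe set was removed by the filter on low signals. The amount added before logs moved the dimmer genes most: with 1 added in place of 16, the differences were -4.03 for fstl1.L and -4.01 for pnhd.L, and with 64 added, -1.95 and -1.93.

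**Figure D2:**
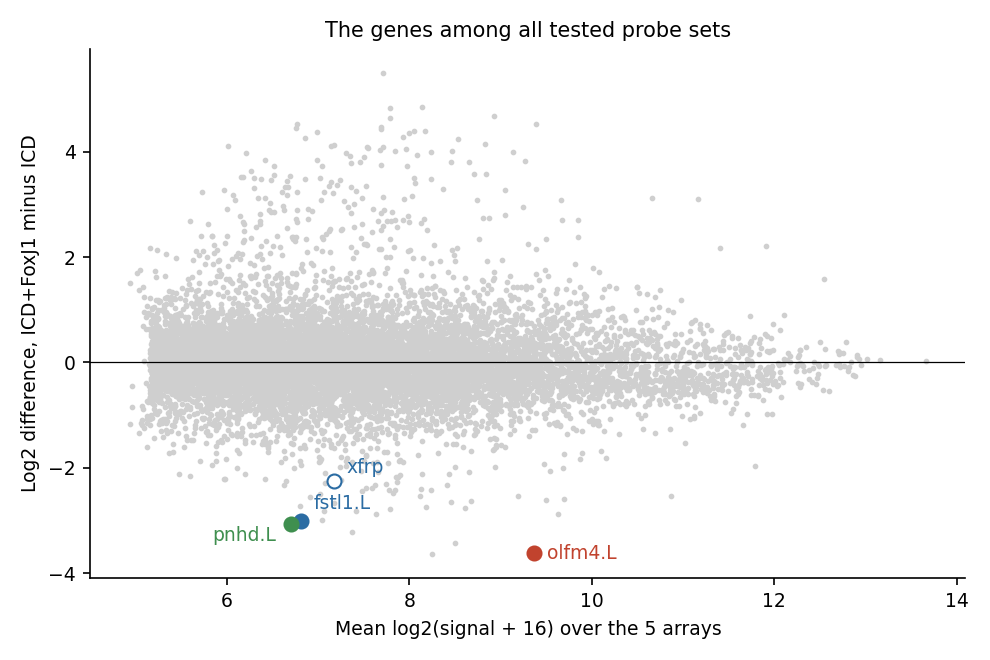
Each grey point is 1 of 11618 tested probe sets, with its mean log2(signal + 16) over 5 arrays on the horizontal axis and its log2 difference (ICD+FoxJ1 minus ICD) on the vertical axis. Olfm4.L (-3.62), pnhd.L (-3.06) and fstl1.L (-3.01) are at the lower edge, and xfrp (-2.26, open circle) is near them.

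Among the ICD arrays the 3 genes differed from one another. They were chosen from signals that include these arrays, so this variation is only described. Olfm4.L was highest on ICD replicate 1 and lowest on replicate 3, with a 1.53-fold range. Fstl1.L was lowest on replicate 1, as were 42.3% of tested probe sets, and had the widest range. Pnhd.L was lowest on replicate 2 and highest on replicate 3, with a 2.44-fold range. The SD of the log2 signal over the ICD arrays was 0.31 for olfm4.L, 0.61 for pnhd.L and 1.04 for fstl1.L. Of all tested probe sets, 58.6%, 89.4% and 98.0% had a smaller one. Between the 2 arrays with FoxJ1, olfm4.L varied 1.73-fold with replicate 1 higher, whereas fstl1.L was above background on replicate 2 alone and pnhd.L on neither.

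Likeness between patterns was measured as the root mean square distance, in log2 units, between signals centred on the mean of each gene over the 5 arrays. Olfm4.L and pnhd.L were the closest pair (0.62), followed by fstl1.L and pnhd.L (0.81) and by olfm4.L and fstl1.L (1.07). Among 7412 named tested probe sets, pnhd.L was the 9th nearest to olfm4.L, and olfm4.L the 21st nearest to pnhd.L. Fstl1.L was farther away, with pnhd.L its 28th and olfm4.L its 116th nearest. These distances mostly reflect the difference between groups, so a gene with a small distance also had a low signal with FoxJ1. They also take in the ICD arrays. A shared order of those arrays among the nearest genes below is thus partly built into their choice, and nothing is read from it. Signals below background entered them as deposited, which holds for both pnhd.L values and 1 fstl1.L value with FoxJ1. It holds as well for some values with FoxJ1 of the nearest genes named below.

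The 5 genes nearest to olfm4.L, of 6096 compared, were mmp3.L (0.32), cldn1.S (0.40), fbn3.L (0.40), col18a1.L (0.57) and cfp.L (0.58). Mmp3 is a matrix metalloproteinase, cldn1 a claudin of tight junctions, fbn3 a fibrillin, col18a1 a collagen of basement membranes and cfp is properdin, a plasma protein of the complement system. Mmp3.L gave 781.9, 952.3 and 732.2 with ICD and 93.2 and 25.3 with FoxJ1, the last value being at the background level of its array. It thus shared the lower value on ICD+FoxJ1 replicate 2, but was not measured there. The cldn1.S probe set gave 2155.1, 1745.3 and 1418.2 with ICD, in the same order of arrays as olfm4.L, and 247.3 and 203.9 with FoxJ1. Another cldn1.S probe set did not share that order. It gave 1728.9, 1845.8 and 1512.3 with ICD, highest on replicate 2, and 321.9 and 222.1 with FoxJ1. Fbn3.L ran in the order of olfm4.L, at 700.7, 380.1 and 219 with ICD and 30.5 and 24.4 with FoxJ1, the last value below background.

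The nearest to fstl1.L were ambp.L (0.40), hapln3.L (0.55), xfrp (0.56), sparc.S (0.60) and hhip.L (0.61). Ambp is the precursor of the plasma proteins alpha-1-microglobulin and bikunin, hapln3 links hyaluronan to proteoglycans, and hhip binds Hedgehog proteins. All 5 were lowest among the ICD arrays on replicate 1, as fstl1.L was, a likeness that the distance itself favours. Ambp.L, for example, gave 473.3, 980 and 798.9 with ICD and 73.8 and 136.1 with FoxJ1. Hhip.L gave 39.1, 165.4 and 161.9 with ICD and 14.1 on both arrays with FoxJ1, below background. Hapln3.L was below background on ICD+FoxJ1 replicate 2 (24.2).

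The nearest to pnhd.L were mmp28.L (0.30), dynll1.S (0.34), col18a1.S (0.35), p2ry4.L (0.42) and col18a1.L (0.44). Mmp28 is a matrix metalloproteinase, dynll1 a light chain of dynein and p2ry4 a nucleotide receptor. Mmp28.L gave 158.7, 200.9 and 336.9 with ICD and 20.5 and 19.7 with FoxJ1. Dynll1.S gave 1031.7, 997.9 and 1539.1 with ICD and 158.8 and 221.2 with FoxJ1. On ICD+FoxJ1 replicate 2 both mmp28.L and p2ry4.L (23.5) were below background. Apart from col18a1.L, which was highest on replicate 2, the 5 genes were highest among the ICD arrays on replicate 3, as pnhd.L was. Col18a1.L was the only gene on 2 of the 3 lists.

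**Figure D3:**
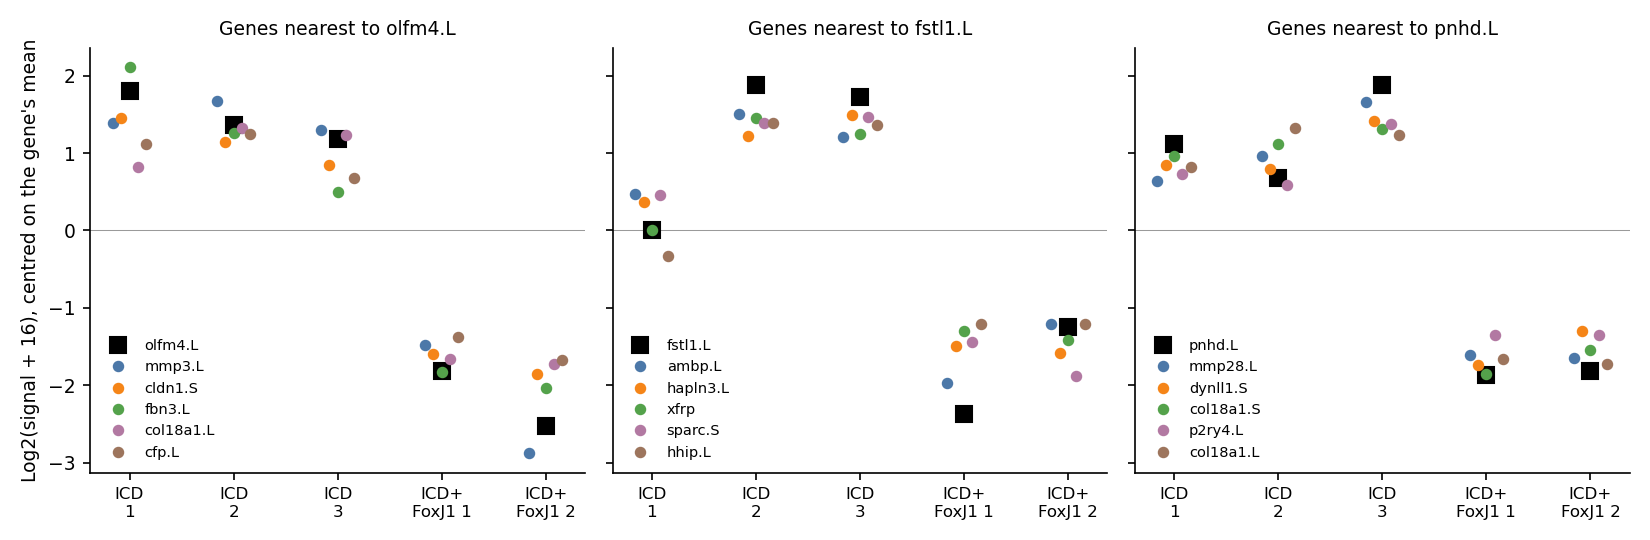
Log2(signal + 16), centred on the mean of each gene, is plotted by array for olfm4.L, fstl1.L and pnhd.L (black squares) and the 5 genes nearest to each (coloured points, spread sideways for legibility). The ICD arrays differ in order between the panels, with ICD replicate 1 highest for olfm4.L and lowest for fstl1.L.

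Relatives of these proteins and the signalling systems they act on were then counted, with the 3 genes left out. Of 5 relatives on the array with an olfactomedin or follistatin-like domain, 3 were at background on all arrays. They were olfm1.S, of the olfactomedin family, fst.L, the activin and BMP antagonist follistatin, and tmeff1.S. The other 2 were tested, and both fell, as 3.00% of all tested probe sets did, but 2 genes are too few to set a share against it. Sparc.S, a matrix glycoprotein with a follistatin-like domain, had signals of 521.9, 1007.7 and 1061.4 with ICD and 127.3 and 90.3 with FoxJ1, and fell by 2.77 on the log2 scale (SE 0.35, limma adjusted p = 0.00412). Sparc.L fell by 1.38 (SE 0.30, limma adjusted p = 0.0344). Their median was -2.07, against -0.03 over all tested probe sets. Without ICD+FoxJ1 replicate 2 neither passed limma's test (2 at an unadjusted p below 0.05), and 1 of the 2 passed when any of ICD replicate 2, ICD replicate 3 or ICD+FoxJ1 replicate 1 was left out.

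The BMP, activin and nodal pathway, on which Fstl1 and Pnhd act, was mostly without calls. Limma placed 1 of 45 tested genes higher and 1 lower, and 43 did not pass, a share of 4.44% against 7.54% of all tested probe sets. Smad6.L, an inhibitory Smad that BMP signals induce, had signals of 521.8, 519.6 and 387.9 with ICD and 182.5 and 199.8 with FoxJ1, and fell by 1.24 (SE 0.24, limma adjusted p = 0.0220). Id2.S, an inhibitor of basic helix-loop-helix factors that also responds to BMP, rose by 1.15 (SE 0.26, limma adjusted p = 0.0383). It did not pass without ICD replicate 3, with no filter on signal or with median centring. There, all calls in this list were lower with FoxJ1. Gata3.S, a transcription factor of non-neural ectoderm, differed by -0.76 (SE 0.24, limma adjusted p = 0.101), and the ligand gene bmp2.L by -1.17 (SE 0.37, limma adjusted p = 0.107). The list's median of -0.06 lay close to that of all probe sets, -0.03. The count of 2 calls was 6 without ICD replicate 1, and 0 without ICD replicate 2 or either array with FoxJ1 (7, 2 and 7 by limma at an unadjusted p below 0.05).

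Among 41 Wnt and FGF pathway genes there were 3 that fell and 0 that rose, and 38 did not pass. This share of 7.32%, all lower, stood against 7.54% of all tested probe sets called in either direction and 3.00% called lower. At an unadjusted p below 0.05 in limma 9 were lower and 0 higher, beside 2877 of 11618 probe sets in either direction. Of the 41 differences, 28 were below 0. Axin2.S, a feedback inhibitor and common readout of Wnt signalling, had signals of 103.4, 74.3 and 92.6 with ICD and 17.5 and 31.5 with FoxJ1, and fell by 1.40 (SE 0.26, limma adjusted p = 0.0185). Fzd2.S, a Wnt receptor gene, fell by 1.28 (SE 0.30, limma adjusted p = 0.0440) and the FGF receptor gene fgfr1.L fell by 1.19 (SE 0.25, limma adjusted p = 0.0318). Fzd10.S, another Wnt receptor gene, differed by -0.77 (SE 0.22, limma adjusted p = 0.0780). Probe sets of the Wnt receptor gene fzd7.L disagreed. The brighter, which stood for it here, differed by -0.88 (SE 0.35, limma adjusted p = 0.170) and did not pass. Another differed by -1.38 (SE 0.24, limma adjusted p = 0.0143). Over the list the median stood at -0.13. The count of 3 was 7 without ICD replicate 1, and 0 without ICD replicate 3 or either array with FoxJ1 (7, 8 and 7 by limma at an unadjusted p below 0.05).

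Among 20 Notch pathway genes 2 rose and 1 fell, whereas 17 did not pass, 15.0% against 7.54%, with a median of 0.30. The Notch ligand gene jag1.L, at 161.7, 144.7 and 193.8 with ICD and 40.0 and 45.9 with FoxJ1, was the one that fell, by 1.63 (SE 0.24, limma adjusted p = 0.00755). Hes5.10.L, a repressor gene of the kind induced by Notch, rose by 2.79 (SE 0.35, limma adjusted p = 0.00413), and hes5.2.L rose at least 2.27-fold from background (limma adjusted p = 0.00931). Hes5.1.L, of the same cluster, differed by 2.78 (SE 1.06, limma adjusted p = 0.159). Its signals were 660.7, 44.7 and 23.0 with ICD and 707.4 and 872.9 with FoxJ1, so ICD replicate 1 alone was near the level with FoxJ1. The 3 calls became 9 without ICD replicate 1, 0 without ICD+FoxJ1 replicate 1 (3 by limma at an unadjusted p below 0.05) and 1 without ICD+FoxJ1 replicate 2. Within the 3 arrays with poly-A signal, 169 probe sets were called in all, 1 of them in the Notch list and 0 in each of the other lists (1 relative, 7 BMP and 2 Wnt or FGF genes by limma at an unadjusted p below 0.05). With the split by poly-A signal as a block, 1 relative, 2 BMP, 1 Wnt or FGF and 3 Notch genes passed.

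**Figure D4:**
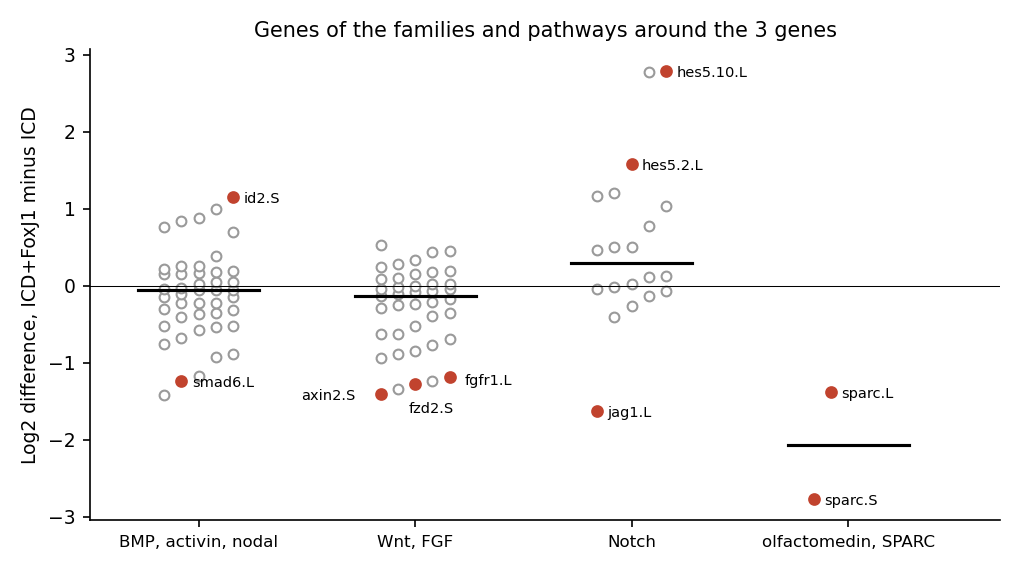
Each point is the log2 difference (ICD+FoxJ1 minus ICD) of 1 tested gene of 4 lists, olfm4, fstl1 and pnhd left out, with filled points for those past a limma adjusted p of 0.05 and a bar at the median. Medians of the BMP and Wnt lists (-0.06 and -0.13) lie near 0, and both sparc homeologs lie below.

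Some markers of cell types moved along with these genes, and their part in the differences of olfm4.L, fstl1.L and pnhd.L was not tested. The counts below stand against 4.54% higher and 3.00% lower over all tested probe sets. Of 17 tested multiciliated cell genes 14 rose and 0 fell. Those 14, among them tekt1.L and rsph1.L, encode parts of motile cilia, the class of genes that FoxJ1 turns on. Their rise alone thus does not measure the number of such cells, which was not tested. The 3 that did not pass encode regulators: rfx2.S (1.01, limma adjusted p = 0.101), ccno.L (0.05, limma adjusted p = 0.953) and foxn4.S (-0.06, limma adjusted p = 0.921). Myb.S, another regulator, and dnah9.S, a dynein chain gene, were at background on all arrays. The summed signal of the 19 multiciliated cell genes on the array was 628 to 2811 over the ICD arrays and 22682 to 26028 with FoxJ1. Of 4 tested genes of basal epidermal cells 3 fell, tp63.L and both krt19 homeologs. The other, itga6.L, differed by -0.36 (limma adjusted p = 0.484). Summed signals were 8666 to 10011 with ICD and 2561 to 3690 with FoxJ1. This sum mostly reflects the krt19 homeologs, with mean ICD signals of 6138 and 2955 against 149 for tp63.L. Of 11 tested genes of mesoderm, endoderm, mesenchyme and neural crest 5 fell and 2 rose. Summed signals over this list, mostly from fn1.S (mean ICD signal 3877), were 4374 to 6480 with ICD and 2558 to 3157 with FoxJ1. Among 32 such genes on the array, 15 were at background throughout, including sox10.L of neural crest and both sox17a homeologs of endoderm. Those that fell were snai1.S and both snai2 homeologs, which encode transcription factors of neural crest and mesoderm, fn1.S (fibronectin) and ckm.L (muscle creatine kinase), and both snai2 homeologs were below background on the arrays with FoxJ1. Those that rose were sox9.S, a transcription factor gene of neural crest, by 1.62 (limma adjusted p = 0.00634), and myod1.L, a regulator of muscle, by 1.21 (limma adjusted p = 0.0411), the latter at background on 2 of the 3 ICD arrays. Probe sets of fn1.S disagreed. The brightest, used here, differed by -0.95 (limma adjusted p = 0.0477) and another by -1.25 (limma adjusted p = 0.0113). Others, at -1.35 and -1.30, did not pass (limma adjusted p = 0.0870 and 0.0964). Another ckm.L probe set, at -1.54, did not pass either (limma adjusted p = 0.147).

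Goblet and small secretory cell genes, of which 11 were tested, had 0 calls in limma, and 2 at an unadjusted p below 0.05 were higher and 2 lower. Their summed signal of 42616 to 50194 with ICD overlapped that of 43160 to 49375 with FoxJ1, and itln1.L, which encodes an intelectin secreted by goblet cells, was above background on all arrays. Of 9 tested ionocyte genes 2 rose, atp6v0d2.L and ca12.L, and both foxi4.2 homeologs fell, 44.4% against the same 7.54% of all tested probe sets, with summed signals of 1532 to 1840 and 1711 to 1966. Of 15 tested genes of neural tissue and of cement and hatching glands 2 fell, tubb2b.S and ncam1.S, and 0 rose. That was 13.3%, all lower, against 7.54% of all tested probe sets called in either direction and 3.00% called lower. Summed signals were 22486 to 29317 with ICD and 19100 to 22189 with FoxJ1. Both homeologs of ag1 and of agr2 are on this list and on the goblet list, so the lists are not separate. They were the brightest genes here, with mean ICD signals of 2944 to 7204, so this sum mostly reflects them. The goblet genes lower at an unadjusted p below 0.05 in limma were the ag1 homeologs. Epidermal genes such as itln1.L and krt19.L were above background in both groups of these ectodermal explants.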

How the data were processed

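The deposited intensities, 1 per probe set and array, were made with MAS5 according to the submitters' processing notes; its version was not given in the sources used here. On each array the mean signal, with 2% trimmed at either end, lay between 200.02 and 200.03, so the arrays had been scaled. Of 15611 probe sets, 120 were controls and took no part in tests. GEO's platform annotation, with symbols updated through the RefSeq gene table of Xenopus_laevis_v10.1, gave 1 gene symbol for 9304 and several for 195, and 9227 were found in RefSeq.

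Signals were compared as log2(signal + 16), after leaving out the dimmest 25% of probe sets by mean signal, with limma (version 3.58.1, R 4.3.3; lmFit and eBayes with a trend), two-sided, with Benjamini-Hochberg adjustment over 11618 probe sets. Differences are given as ICD+FoxJ1 minus ICD, and for dim probe sets the constant of 16 understates them. Each listed gene was represented by its brightest probe set. The code was tested on simulated data.

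The 3 genes, the lists and the tests were chosen with earlier results of these data known. Genes named are the 4 with the smallest p of each of 4 lists. Also named are the 5 nearest in pattern to each of the 3 genes. Outside this rule, and chosen after their values were seen, are admp, fzd7.L, the relatives at background and the markers named. The difference within the arrays without poly-A signal and a floor at background are 2 settings added after seeing the data. The small number of arrays limits precision.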

Additional observations from a re-analysis of the deposited data

How the results depend on the processing

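The log2 differences of olfm4.L, fstl1.L and of the brighter pnhd.L probe set were below 0 under every setting run. That sign was largely fixed in advance and is no support. The genes were chosen for this difference, and both arrays with FoxJ1 lay below all ICD arrays. Leaving out 1 array at a time gave -3.97 to -3.27 for olfm4.L, -3.61 to -2.45 for fstl1.L and -3.34 to -2.74 for pnhd.L. The pnhd.L probe set at background gave -0.12, with -0.28 to 0.05 when 1 array was left out and -0.37 with 1 added before logs, so its sign is not settled. With 1 added, fstl1.L was at -4.03 and pnhd.L at -4.01, and with 64 added at -1.95 and -1.93, which follows from the closeness of these signals to the constant. The pair of arrays without poly-A signal gave -3.69 for pnhd.L. All other settings moved the 4 values by less than the spread between replicates.

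Counts of calls depended on the arrays. Leaving out 1 at a time gave 169 to 1404 probe sets in all against 876, 0 to 2 relatives, 0 to 6 BMP genes, 0 to 7 Wnt and FGF genes and 0 to 9 Notch genes. With the replicate block, 322 probe sets, 1 relative, 0 BMP genes and 0 Wnt and FGF genes were called (with 9 and 5 at an unadjusted p below 0.05). Whether equal replicate numbers pair the samples is not settled. Over probe sets, deviations from the group means correlated at -0.06 and -0.32 for arrays of equal number. They correlated at 0.32 for ICD replicate 2 with ICD+FoxJ1 replicate 1, and at 0.25 for ICD replicate 3 with ICD+FoxJ1 replicate 2. Deviations of the 2 arrays with FoxJ1 mirror each other, so the signs are tied and these correlations cannot decide on pairing. Within the arrays with poly-A signal, 169 probe sets, 0 relatives, 0 BMP, 0 Wnt and FGF and 1 Notch gene were called by limma (1, 7, 2 and 3 at an unadjusted p below 0.05), from 3 arrays. With the split by poly-A signal as a block, 1 relative and 1 Wnt or FGF gene passed, and 1 BMP gene did with no filter or with median centring. The cause was not tested. Signals at background limit what can be said of pnhd.L and fstl1.L with FoxJ1, where only bounds or 1 array are at hand.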
